A study of Mus musculus with 57 samples.

Results

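The 10 genes described here mark monocytes that enter an injured liver and the macrophages they become. They are Ccr2, Chil3, S100a4, Trem2, Gpnmb, Lgals3, Cd63, Cd68, Mmp12 and Fabp5. They were chosen by name, and each symbol matched 1 row of a table of 54307 mouse genes. Their values were read in 57 livers, each from a different male C57BL/6JJcl wild-type mouse, and each liver gave 1 bulk RNA-seq library. The study was made to test and tune the estimation of cell-type shares from whole-tissue expression, called deconvolution.

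Every mouse arrived at 6 weeks of age and was acclimatised for 1 week, then fasted for 12 h, dosed once, and killed 24 h later. By gavage, 4 mice received alpha-naphthyl isothiocyanate (ANIT, a bile duct toxicant), 6 acetaminophen (APAP), 7 4,4'-methylene dianiline (MDA, also a bile duct toxicant) and 5 thioacetamide (TAA). Their control group (Ctrl) was 13 mice gavaged with 0.5% methylcellulose. By intraperitoneal injection, 7 mice received carbon tetrachloride (CCl4) and 4 received galactosamine (GAL), and 2 mice received 0.9% saline (CIP). By intravenous injection, 7 mice received concanavalin A (ConA, a plant lectin that activates T cells) and 2 received 0.9% saline (CIV). The labels give no dose of any compound. They also name corn oil among the vehicles, but no group is a corn oil control, so for a compound given in it the compound and the oil cannot be told apart. With 2 mice in each saline group, CCl4, GAL and ConA were also compared with all 17 vehicle mice, as were the gavage compounds.

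A healthy liver holds its own resident macrophages, the Kupffer cells. After injury, inflammatory monocytes leave the bone marrow in response to CCL2, which acts on the receptor CCR2, and turn into macrophages in and around dead tissue. These macrophages take up dead cells and their lipids, enlarge their lysosomes and release enzymes that cut matrix. TREM2, a lipid-sensing receptor, and GPNMB, a glycoprotein of the lysosome and cell surface, are widely used as marks of this later state. In a whole piece of tissue, more cells of a type and more RNA per cell cannot be told apart. None of the 10 genes is restricted to these cells: hepatocytes, stellate cells or epithelia can express Cd63, Fabp5, Lgals3 and S100a4, and neutrophils can express Chil3.

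The stretches just before the start sites of 3 of the genes are shown because Trem2, Gpnmb and Mmp12 stand for the later state and because the short motifs searched are bound by factors active in macrophages. They come from RefSeq on GRCm38.p6, read in the direction of the gene and ending at the base before the start, and stop earlier where another transcript's untranslated region begins. Capitals mark matches to TGANTCA (AP-1), CACGTG (E-box), TCATGTG (M-box, bound by MITF and its relatives) or GGAAGT (a core of ETS factors such as PU.1), on either strand.
Trem2, chr17:48346151-48346400: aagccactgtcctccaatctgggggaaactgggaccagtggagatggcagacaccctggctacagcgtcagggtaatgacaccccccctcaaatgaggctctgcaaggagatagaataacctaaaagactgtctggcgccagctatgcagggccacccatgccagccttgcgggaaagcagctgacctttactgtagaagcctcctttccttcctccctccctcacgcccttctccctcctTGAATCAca
Gpnmb, chr6:49036268-49036517: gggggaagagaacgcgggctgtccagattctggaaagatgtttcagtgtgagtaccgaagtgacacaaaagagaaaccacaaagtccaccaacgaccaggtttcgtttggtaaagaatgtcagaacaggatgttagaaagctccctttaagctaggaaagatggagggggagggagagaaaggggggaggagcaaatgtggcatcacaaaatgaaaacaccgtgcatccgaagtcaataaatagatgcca
Mmp12, start 1, chr9:7344147-7344380: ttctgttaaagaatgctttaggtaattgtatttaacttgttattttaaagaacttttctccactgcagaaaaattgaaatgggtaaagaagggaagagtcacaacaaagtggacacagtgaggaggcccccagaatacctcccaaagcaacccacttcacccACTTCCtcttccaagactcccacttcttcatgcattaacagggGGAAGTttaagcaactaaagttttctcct
Mmp12, start 2, chr9:7347124-7347373: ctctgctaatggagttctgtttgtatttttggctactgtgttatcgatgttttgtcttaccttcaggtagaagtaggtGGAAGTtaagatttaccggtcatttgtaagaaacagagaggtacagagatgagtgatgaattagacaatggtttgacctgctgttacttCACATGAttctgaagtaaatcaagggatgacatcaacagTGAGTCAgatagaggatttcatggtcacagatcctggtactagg

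TGANTCA lay 9 to 3 bases before the Trem2 start and 44 to 38 bases before the second Mmp12 start, and it occurred in 6.75% of 32851 mouse promoter windows. GGAAGT, at both Mmp12 starts, occurred in 19.7% of them, and TCATGTG, at the second start, in 3.25%. The Gpnmb window held none of the 4 motifs. Fabp5 has no entry in this table. Of the members not printed, Cd68 held TGANTCA at 2 places, Chil3 held GGAAGT at 2 and Cd63 at 1, over the 250 bases before each start. A match describes these letters only.

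The deposited values are estimated counts per gene, with totals of 13826343 to 35075809 per library. Levels below are in CPM, counts brought to a common library total, scaled between libraries by TMM, edgeR's trimmed-mean method, and spread is the SD over mice. Changes are log2 fold changes from edgeR, with the standard error (SE), and a gene was called when its Benjamini-Hochberg adjusted p over all genes tested was under 0.05. Summed hepatocyte markers were 61780 to 129700 CPM in vehicle livers, 25050 to 36010 with CCl4, 30990 to 38160 with GAL and 46010 or more in all other treated livers. All 6 of these markers were called lower with CCl4 (median change -1.39, beside 15.6% of all genes called lower) and with GAL (-1.44, beside 15.7%). In both groups most of the 10 genes rose, and the part of this fall in their values was not tested. Summed neutrophil markers were low in vehicle livers (3.17 to 69.4 CPM, with Ly6g at 0 in all 17) and high with TAA (165 to 850 CPM) and ConA (152 to 321 CPM). With GAL they were 27.5 to 42.4 CPM, within the vehicle range, and with CCl4 11.0 to 78.9. All lay above both saline mice of that route (6.00 and 6.21). Against saline, 5 of 6 markers tested were called higher with GAL (beside 12.8% of all genes) and 4 of 7 with CCl4 (18.0%). Against all 17 vehicle mice, 1 of 6 was called higher with GAL (25.1%) and 3 of 5 with CCl4 (26.2%). Genes low in every mouse of a comparison were not tested, so a marker near 0 in vehicle livers counts mainly where treated mice are high. With APAP the sums were 14.0 to 274.5 CPM. Summed Kupffer markers were 343 to 1016 CPM in vehicle livers and 86.5 to 166 CPM with ConA. With CCl4 they were 258 to 732 CPM, below both saline mice (755 and 776), with 5 of 10 markers called lower (beside 15.6% of all genes). With GAL they were 715 to 997 CPM. The part of these cells in the members' values was not tested.

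Most of the 10 genes rose with 4 of the 7 compounds, APAP, TAA, CCl4 and GAL. All 10 rose with APAP, where 17.3% of all genes tested were called higher and 14.6% lower, and all 10 rose with TAA, where 26.4% were higher and 24.0% lower. With CCl4, 9 of 10 rose beside 18.0% of all genes and 0 fell beside 15.6% called lower, and Fabp5 did not pass the test. With GAL, 9 rose beside 12.8% of all genes, and Fabp5 fell, beside 15.7% of all genes called lower. With ConA, 3 of the 9 genes tested rose (Chil3, Cd63 and Fabp5) beside 16.8%, and 0 fell beside 17.3%. A gene not called against 2 saline mice is not shown to be unchanged. With MDA, 2 rose (Cd63 and Trem2) beside 17.4%, and Fabp5 fell beside 16.4%. With ANIT, 0 of 9 tested rose by edgeR (0 at an unadjusted p under 0.05, and 0 by DESeq2) beside 14.0% of all genes, and Fabp5 fell beside 14.2%. The median log2 change of the members tested was 2.54 with APAP, 2.10 with TAA, 2.92 with CCl4, 2.48 with GAL, 1.35 with ConA, 0.33 with MDA and -0.34 with ANIT, beside medians of all genes between -0.01 and 0.10. In ANIT and ConA, Ccr2 did not pass the filter on low values and was not tested.

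Against all 17 vehicle mice the number called was the same for APAP, TAA and ANIT. All 10 genes were again called higher with APAP (18.1% of all genes) and with TAA (25.2%), and 0 with ANIT (13.5%), where Fabp5 was again lower (14.5%). With MDA, 3 were higher by edgeR and 2 by DESeq2 (17.2% of all genes by edgeR). By edgeR, Chil3 was added at 2.23 ± 0.85 (SE), and Fabp5 was lower (17.1%). With CCl4, 8 were higher (26.2%) and with GAL 8 were higher (25.1%) and Fabp5 was lower (27.5%). Chil3 was not called there, at 1.52 ± 0.81 with CCl4 and 2.08 ± 0.99 with GAL, and its levels in both compounds lay within the vehicle range. With ConA, 6 of 9 were higher (34.3%), Cd68, Lgals3 and Mmp12 being added, and Trem2 was lower (33.7%).

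When libraries were scaled by their totals instead of by TMM, the median log2 change of all genes shifted, and the members shifted with it. The shift was 0.43 in log2 with CCl4, 0.76 with GAL, -0.59 with ConA, -0.22 with ANIT and 0.16 with APAP, each against its route vehicle. The share of called genes that were higher went from 53.6% to 80.6% with CCl4, from 44.9% to 86.7% with GAL, from 49.3% to 22.7% with ConA, from 49.5% to 23.7% with ANIT and from 54.3% to 72.5% with APAP. Fabp5 moved by about these shifts and crossed the threshold with 3 compounds: with GAL its fall (-1.03) became -0.27 and was not called, with CCl4 its 0.52 became 0.94 and was called, and with ConA its rise of 1.41 became 0.75 and was not called. Trem2 with MDA (1.06, adjusted p = 0.0585) and Gpnmb with TAA (1.62, adjusted p = 0.053) were not called either. Against all 17 vehicle mice, Lgals3 (1.05, adjusted p = 0.057) and Mmp12 (0.85, adjusted p = 0.14) with ConA lost their calls, and Chil3 gained one with CCl4 (2.04, adjusted p = 0.0301) and GAL (2.89, adjusted p = 0.0109). Over all comparisons, 7 of 157 member results lost their call under this scaling, 4 gained one and 0 reversed.

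Ccr2, the receptor by which inflammatory monocytes follow CCL2, was a low transcript in every group. In the 13 gavage vehicle mice it ran from 0.0841 through a median of 0.328 to 1.27 CPM. The 2 highest of these were mice 17 and 18, at 1.27 and 1.25 CPM. In GAL the 4 mice had 1.43, 2.50, 3.34 and 1.95 CPM, all above every vehicle mouse, and the rise over the saline mice at 0.403 and 0.165 CPM was 2.88 ± 0.59 (adjusted p = 0.0161). In TAA the 5 mice had 0.414, 1.35, 2.43, 4.17 and 1.67 CPM, and 4 of them lay above all 13 controls (2.32 ± 0.54, adjusted p = 0.0014). APAP ran from 0.0778 through 1.82 to 4.20 CPM, with 4 of 6 mice above all controls and 1 below all of them (2.30 ± 0.56, adjusted p = 0.00399). CCl4 ran from 0.681 through 0.992 to 2.23 CPM, all 7 above both saline mice (1.95 ± 0.65, adjusted p = 0.0451). MDA, from 0.0575 to 0.984 CPM, overlapped its controls. ANIT had 0.438, 0.260, 0.112 and 0.0836 CPM. ConA was lowest, from 0 through 0.0630 to 0.277 CPM, with 6 of 7 mice below both intravenous saline mice, whose own values were 0.211 and 1.09 CPM. In the order of group means, from GAL at 2.31 down to ConA at 0.0990 CPM, the ranges of each group and the next overlapped.

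Chil3, which encodes the secreted chitinase-like protein Ym1 of monocytes, macrophages and neutrophils, varied widely between mice of 1 group. In gavage vehicle livers its median was 0.528 CPM, but mouse 15 had 24.2, mouse 17 had 7.42 and mouse 18 had 3.66 CPM. TAA had 23.1, 12.4, 22.3, 39.3 and 14.9 CPM (2.91 ± 0.95, adjusted p = 0.0157), and because of the single high vehicle mouse only 1 of these lay above all 13 controls. APAP ran from 2.06 through 9.61 to 55.0 CPM (2.78 ± 0.98, adjusted p = 0.0356). That call was lost, at an adjusted p of 0.0501 to 0.128, when APAP mouse 8 or 11 or vehicle mouse 8, 9 or 10 was left out, and at 0.058 without the filter on low values. GAL had 6.17, 10.5, 17.9 and 9.15 CPM against 0.345 and 0.705 in saline mice (4.45 ± 0.63, adjusted p = 0.00512). CCl4 ran from 1.52 through 7.75 to 14.5 CPM (3.89 ± 1.01, adjusted p = 0.0155). ConA ran from 6.75 through 9.79 to 20.4 CPM against 0.800 and 1.48 CPM (3.50 ± 0.58, adjusted p = 0.00139), and all 7 mice lay above both saline mice. MDA ran from 0.237 through 7.40 to 27.6 CPM and did not pass the test (1.95 ± 0.93, adjusted p = 0.113). Without vehicle mouse 15 it did (3.20, adjusted p = 0.00471), and against the 9 gavage mice numbered up to 12, a control set chosen after the values were seen, it was 4.79 (adjusted p = 0.000181). ANIT had 24.7 CPM in mouse 1 and 1.62, 0.382 and 0.445 in the others (1.12 ± 1.27, adjusted p = 0.553), and against the same 9 mice it was called at 4.00 (adjusted p = 0.00836). Chil3 and its close relative Chil4 share sequence, and how shared reads were divided is not given in the sources used here.

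High Chil3 stood beside high neutrophil markers in some of these mice. APAP mice 8 and 11, at 40.3 and 55.0 CPM of Chil3, had summed neutrophil markers of 208.7 and 274.5 CPM, and the other 4 APAP mice had 14.0 to 45.7 CPM. MDA mice 7 and 12, the highest of their group for Chil3 at 25.8 and 27.6 CPM, had 139 and 121 CPM of neutrophil markers, and the other 5 had 9.63 to 37.4. Vehicle mouse 15 had 13.3 CPM of neutrophil markers, below mice 17 and 18 (37.5 and 69.4), which had less Chil3. The part of neutrophils in Chil3 was not tested.

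S100a4, a small calcium-binding protein of monocytes and of fibroblasts, rose with 4 compounds. The gavage vehicle mice ran from 0 through 0.895 to 5.33 CPM. APAP ran from 2.13 through 11.2 to 18.8 CPM, with 5 of 6 mice above all controls (2.68 ± 0.57, adjusted p = 0.00144). TAA had 12.0, 6.88, 7.77, 9.84 and 7.76 CPM, all above every vehicle mouse (2.34 ± 0.56, adjusted p = 0.00176). GAL had 6.88, 10.5, 10.2 and 5.24 CPM (1.71 ± 0.39, adjusted p = 0.0215) and CCl4 ran from 3.12 through 7.71 to 14.8 CPM (1.67 ± 0.57, adjusted p = 0.0495) against saline mice at 2.06 and 3.04. MDA (0.761 to 5.08 CPM), ConA (1.34 to 4.07 CPM) and ANIT (0 to 2.50 CPM) overlapped their controls and were not called. Summed stellate and fibroblast markers, beside which S100a4 can be read, were 52.7 to 130.5 CPM with APAP and 60.8 to 177 with TAA, against 35.8 to 102 in gavage vehicle mice, and 63.5 to 120.1 with CCl4 against 57.3 and 69.3 in saline mice. With GAL, where S100a4 also rose, they were 52.8 to 70.4 CPM against those saline mice. Where S100a4 was not called they were lower, at 11.0 to 19.8 CPM with ANIT, 11.3 to 20.6 with MDA, and 17.2 to 48.9 with ConA against 55.7 and 82.2 in saline mice. Of these 6 markers, 5 were called lower with ANIT, 6 with MDA and 4 with ConA, beside 14.2%, 16.4% and 17.3% of all genes. Where S100a4 rose, 3 were called higher and 0 lower with APAP (beside 17.3% and 14.6%). The counts were 1 and 1 with TAA (26.4% and 24.0%), 1 and 1 with CCl4 (18.0% and 15.6%), and 0 and 0 with GAL (12.8% and 15.7%). Their part in the S100a4 values was not tested.

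**Figure D1:**
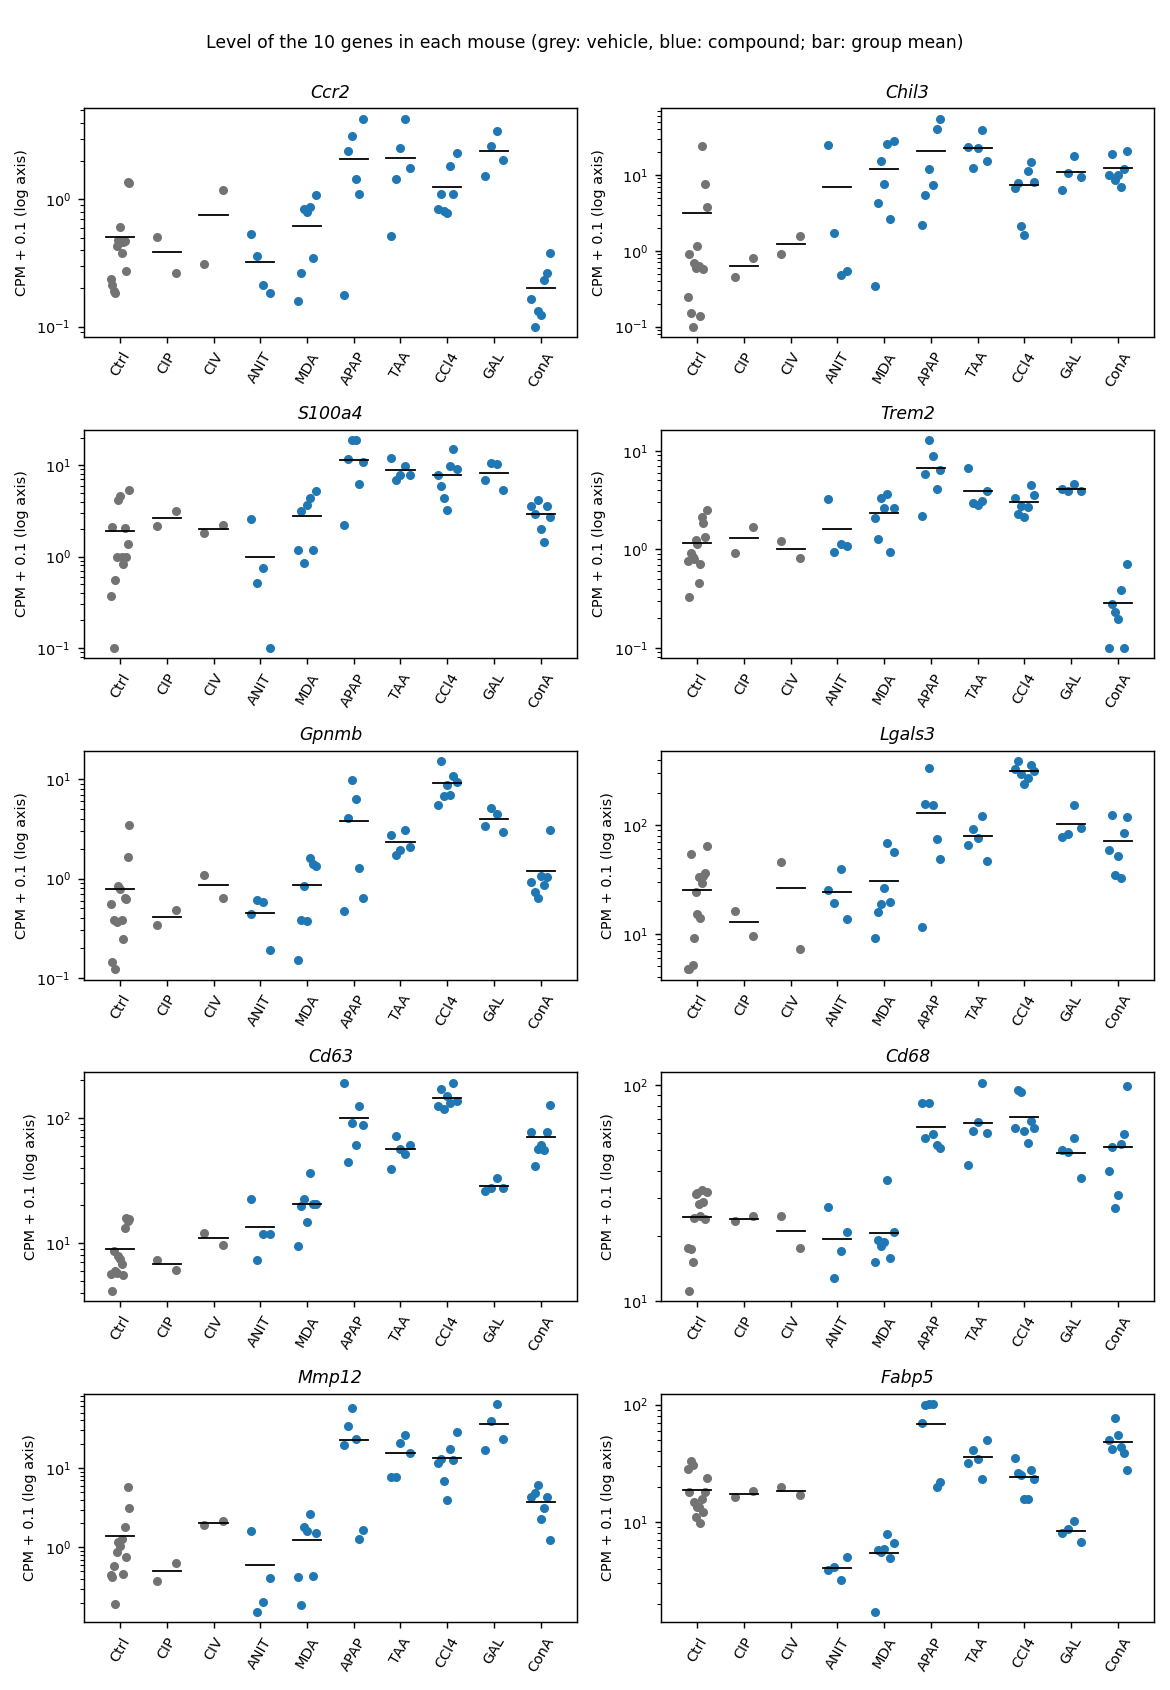
CPM of each of the 10 genes (panels, log axis) in every mouse (points) of the 3 vehicle and 7 treated groups. GAL, TAA, APAP and CCl4 sit high for Ccr2, S100a4, Trem2 and Mmp12, and ConA sits lowest for Ccr2 and Trem2.

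Trem2, the lipid-sensing receptor that signals through the adaptor TYROBP, rose with 5 compounds and was lowest with ConA. The gavage vehicle mice ran from 0.226 through 0.821 to 2.38 CPM. APAP mice 1, 2, 4, 6, 8 and 11 had 2.06, 5.76, 12.7, 8.74, 4.02 and 6.28 CPM, 5 of them above all controls (2.66 ± 0.38, adjusted p = 2.99e-05). TAA had 6.55, 2.88, 2.69, 3.02 and 3.85 CPM, all above every vehicle mouse (1.88 ± 0.37, adjusted p = 0.000339). The GAL mice lay close together, at 4.00, 3.83, 4.48 and 3.78 CPM against 0.826 and 1.57 in saline mice (1.78 ± 0.33, adjusted p = 0.012). CCl4 ran from 2.03 through 2.64 to 4.38 CPM (1.34 ± 0.38, adjusted p = 0.0223). MDA ran from 0.840 through 2.51 to 3.51 CPM, with 4 of 7 mice above all controls (1.09 ± 0.36, adjusted p = 0.0209). This call was lost without MDA mouse 3 or 7, at adjusted p of 0.0521 and 0.0593. ANIT had 3.17 CPM in mouse 1 and 0.834, 1.03 and 0.970 in the others, and was not called (0.48 ± 0.48).

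With ConA, Trem2 was at 0 in 2 of 7 mice and at most 0.609 CPM in the others, below both intravenous saline mice (1.11 and 0.723 CPM). Against those 2 mice the change was -2.09 ± 0.96 and not called (adjusted p = 0.118), and without ConA mouse 12, the highest, it was -2.79 and called (adjusted p = 0.0327). Against all 17 vehicle mice it fell by 2.21 ± 0.51 on the log2 scale (adjusted p = 0.000467), with 5 of 7 mice below all 17. The gap between ConA and every other compound passed the test of the difference, from 2.61 ± 0.78 against ANIT to 4.76 ± 0.72 against APAP, the pairs being compared after subtraction of the route vehicle. All 10 Kupffer markers also fell with ConA, beside 17.3% of all genes called lower, their median change being -2.34 against intravenous saline and that of all genes 0.03, and their summed level was 86.5 to 166 CPM against 738 and 556. Their part in the Trem2 values was not tested.

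Gpnmb was barely present in vehicle livers and reached its highest level with CCl4. The 2 intraperitoneal saline mice had 0.239 and 0.379 CPM, and the gavage mice ran from 0.0220 through 0.451 to 3.38 CPM, mouse 18 being the highest and mouse 17 next at 1.56. CCl4 ran from 5.47 through 8.74 to 15.1 CPM, all 7 above all 17 vehicle mice, with a rise of 4.93 ± 0.52 (adjusted p = 0.000124) over saline. GAL had 3.32, 5.09, 4.38 and 2.84 CPM (3.69 ± 0.45, adjusted p = 0.00351), below all CCl4 mice. TAA had 2.67, 1.64, 1.86, 2.98 and 1.98 CPM and was called higher (1.72 ± 0.64, adjusted p = 0.0307), although mouse 18 of the vehicle group lay above all 5. The TAA call was lost without TAA mouse 1 or 7, at adjusted p of 0.0581 and 0.0727. APAP ran from 0.372 through 2.58 to 9.64 CPM (2.43 ± 0.70, adjusted p = 0.0118), with 3 of 6 mice above all controls, and without mouse 4 it was not called (1.87, adjusted p = 0.0594). ConA (0.531 to 3.02 CPM), MDA (0.0524 to 1.52 CPM) and ANIT (0.0911 to 0.504 CPM) were not called.

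Cd63, a tetraspanin of late endosomes and lysosomes made by many cell types, rose with 6 of 7 compounds. Against saline mice at 7.25 and 6.03 CPM, CCl4 ran from 118 through 137 to 192 CPM, a mean of 146 ± 27 (SD, n = 7) and 22.0 times the saline mean (4.48 ± 0.26, adjusted p = 6.41e-06). GAL had 26.0, 27.4, 32.7 and 27.3 CPM (2.09 ± 0.22, adjusted p = 0.00274). Against gavage mice at 4.06 to 15.9 CPM, APAP had 190.5, 44.1, 91.5, 60.9, 125 and 87.6 CPM (3.53 ± 0.31, adjusted p = 3.33e-07) and TAA had 39.3, 71.7, 56.7, 51.7 and 60.6 CPM (2.69 ± 0.27, adjusted p = 1.39e-07). Every mouse of these 4 groups lay above every control of its route. ConA ran from 41.2 through 60.6 to 127 CPM against 12.0 and 9.62 (2.76 ± 0.47, adjusted p = 0.00165). MDA ran from 9.30 through 20.2 to 36.0 CPM, with 5 of 7 mice above all controls (1.19 ± 0.27, adjusted p = 0.0019). ANIT had 22.3, 7.26, 11.7 and 11.6 CPM and was not called (0.56 ± 0.35, adjusted p = 0.244). Against the 9 gavage mice numbered up to 12, ANIT was called at 1.08 (adjusted p = 0.00541).

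Cd68, the macrophage glycoprotein macrosialin of lysosomes, moved less. Its gavage vehicle range was 11.1 through 24.8 to 32.5 CPM. APAP ran from 50.9 through 58.3 to 83.1 CPM (1.43 ± 0.19, adjusted p = 1.86e-05) and TAA had 42.6, 61.7, 67.3, 103 and 59.9 CPM (1.50 ± 0.22, adjusted p = 1.11e-05), all 11 mice above all 13 controls. CCl4 ran from 54.2 through 63.6 to 95.6 CPM (1.61 ± 0.24, adjusted p = 0.000862) and GAL had 50.0, 49.2, 56.9 and 37.1 CPM (1.01 ± 0.22, adjusted p = 0.0187) against 23.4 and 24.6 in saline mice. ConA ran from 26.8 through 51.7 to 99.5 CPM, all above both saline mice at 24.7 and 17.4, and was not called (1.35 ± 0.50, adjusted p = 0.0617). It was called by DESeq2 (1.29, adjusted p = 0.0178), and by edgeR without ConA mouse 4 (1.47, adjusted p = 0.040) or 12 (1.09, adjusted p = 0.0458). MDA, at 15.0 to 36.4 CPM, and ANIT, at 12.7 to 27.1 CPM, overlapped the gavage range and were not called.

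Lgals3 encodes galectin-3, a sugar-binding protein that macrophages secrete and that gathers on damaged lysosomes. With CCl4 it ran from 240.2 through 318 to 387 CPM against 16.1 and 9.48 in saline mice, a rise of 4.64 ± 0.31 (adjusted p = 1.16e-05), and all 7 mice lay above all 17 vehicle mice. GAL had 78.0, 83.2, 155 and 93.6 CPM (2.99 ± 0.44, adjusted p = 0.00591). The gavage vehicle mice were spread from 4.61 through 24.3 to 63.8 CPM. TAA had 65.3, 91.5, 75.7, 121 and 46.2 CPM, 4 of them above all controls (1.71 ± 0.50, adjusted p = 0.00736). APAP ran from 11.6 through 114 to 336 CPM, also with 4 mice above all controls (2.39 ± 0.57, adjusted p = 0.00306). ConA ran from 32.7 through 59.6 to 123 CPM and was not called against saline mice at 45.6 and 7.13 (1.49 ± 0.76, adjusted p = 0.155). Without saline mouse 7 it was called (3.43, adjusted p = 0.0339), and against all 17 vehicle mice it was called at 1.69 ± 0.44 (adjusted p = 0.00138). MDA (8.96 to 68.2 CPM) and ANIT (13.6 to 39.5 CPM) overlapped their controls.

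Mmp12, the macrophage elastase that cuts elastin and other matrix, showed the largest log2 change of the 10 genes with GAL, CCl4, APAP and TAA, each against its route vehicle. GAL had 16.8, 39.3, 63.8 and 23.2 CPM against 0.277 and 0.529 in its saline mice, a rise of 6.56 ± 0.85 (adjusted p = 0.00399). Against all 17 vehicle mice, whose highest value was 5.67 CPM in gavage mouse 17, the rise was 4.79 ± 0.54 (adjusted p = 1.26e-07), and all 4 mice again lay above every vehicle mouse. CCl4 ran from 3.81 through 12.4 to 28.4 CPM (5.17 ± 0.91, adjusted p = 0.00216, and 3.36 ± 0.47 against all 17). Against all 17, Cd63 (4.01), Gpnmb (3.73) and Lgals3 (3.69) rose more with CCl4 than Mmp12 did. TAA had 7.55, 7.60, 20.8, 25.8 and 15.3 CPM, all above all 13 controls (3.61 ± 0.55, adjusted p = 2.17e-05). APAP mice 1, 2, 4 and 6 had 19.5, 33.3, 57.9 and 23.1 CPM, and mice 8 and 11 had 1.18 and 1.54 CPM, within the vehicle range (4.15 ± 0.68, adjusted p = 0.000134). ConA ran from 1.14 through 4.27 to 6.10 CPM against 1.81 and 2.06 (0.96 ± 0.55, adjusted p = 0.199), and was called against all 17 vehicle mice (1.61 ± 0.49, adjusted p = 0.00547). MDA ran from 0.0858 to 2.54 CPM and ANIT from 0.0535 to 1.52 CPM, and neither was called.

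Fabp5, a carrier of fatty acids found in lipid-handling macrophages and in other cells, fell with 3 compounds and rose with 3. The gavage vehicle mice ran from 9.67 through 15.5 to 32.6 CPM. ANIT had 3.82, 4.06, 3.09 and 4.90 CPM, all below every control, and fell by 2.21 on the log2 scale with an SE of 0.34 (adjusted p = 0.000137). MDA ran from 1.61 through 5.66 to 7.81 CPM, all 7 below every control (-1.77 ± 0.29, adjusted p = 7.61e-05). GAL had 7.95, 8.58, 10.1 and 6.67 CPM against 16.1 and 18.1 in saline mice (-1.03 ± 0.22, adjusted p = 0.0181). In the opposite direction, APAP had 69.6, 99.1, 100.4, 101, 19.9 and 21.9 CPM, a rise of 1.92 ± 0.32 (adjusted p = 0.000163), with mice 8 and 11 within the vehicle range. ConA ran from 27.7 through 43.4 to 76.0 CPM against 19.6 and 17.0 (1.41 ± 0.34, adjusted p = 0.00968), and TAA had 31.6, 41.2, 34.0, 23.1 and 49.4 CPM (1.01 ± 0.26, adjusted p = 0.00289). CCl4 ran from 15.4 through 24.9 to 34.7 CPM, on both sides of its saline mice (0.52 ± 0.29, adjusted p = 0.207). The genome holds copies of Fabp5 that resemble the gene closely, and how reads shared with them were counted is not given in the sources used here.

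Neighbours in the order of group means mostly overlapped. From the highest to the lowest mean of each gene, a group and the next did not overlap in their mice for CCl4 and GAL in Gpnmb, for TAA and GAL in Cd63, for GAL and the gavage vehicle in Cd68, for intraperitoneal saline and GAL in Fabp5, and for intravenous saline and ConA in Trem2. The 2 saline groups also parted in Chil3. At every other step of the 10 orders the mice overlapped. These are 6 of 90 steps, beside 2.80% of the steps of the 14035 genes that averaged 0.5 CPM or more over the 57 livers.

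Several calls against saline rested on single mice, and leaving out 1 of 2 saline mice leaves 1, which is then assumed to vary like the treated mice. With CCl4, Ccr2 was not called without saline mouse 7 (2.89, adjusted p = 0.0701) or 8 (1.50, 0.261), nor without CCl4 mouse 5, 10, 11 or 12 (1.70 to 1.98, 0.0539 to 0.0665). S100a4 was not called without either saline mouse (1.43 and 1.94, adjusted p of 0.245 and 0.153) or without CCl4 mouse 1, 5, 10 or 12 (0.0595 to 0.0737). Chil3 was not called without saline mouse 7 (3.42, 0.122) or 8 (4.39, 0.0784), and Trem2 not without saline mouse 7 (0.94, 0.185). Gpnmb, Lgals3, Cd63, Cd68 and Mmp12 stayed called with CCl4 whichever mouse was left out. With GAL, S100a4 (1.51 to 1.93), Cd68 (0.98 to 1.04) and Fabp5 (-1.05 to -1.01) were not called without saline mouse 7 or 8 or GAL mouse 4, at adjusted p of 0.0516 to 0.123, nor Fabp5 without GAL mouse 8 (-0.93, 0.0508). Trem2 was not called without saline mouse 7 (1.40, 0.0588), nor Ccr2 without saline mouse 8 (2.42, 0.091). With ConA, Fabp5 was not called without saline mouse 8 (1.28, 0.073).

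Effects of 2 compounds, each relative to its own vehicle, were then compared directly for all 21 pairs, in 1 fit over the 57 libraries. Of 210 member and pair combinations, 78 differed (adjusted p under 0.05 within the pair), beside 15.1% of all gene and pair combinations. Fabp5 differed in 12 of 21 pairs, Cd63 in 11, Cd68 and Mmp12 in 10 each, Trem2 in 8, Gpnmb in 7, Lgals3 in 6, S100a4 in 4 and Chil3 in 0 (edgeR; also 0 at an unadjusted p under 0.05 and 0 by DESeq2). Ccr2 also differed in 10, but 8 of these involve ANIT or ConA. There it did not pass the filter against the route vehicle, and it enters this fit through the groups where it is high. Nothing is read from those 8, which the total of 78 and the counts by pair include. They lie in the pairs of ANIT with APAP, TAA and GAL, and of ConA with APAP, MDA, TAA, CCl4 and GAL. APAP exceeded MDA in 9 of the 10 genes, where 16.5% of all genes differed, from 1.55 ± 0.44 for Trem2 to 4.29 ± 0.74 for Mmp12, and the gene left out was Chil3. ANIT and MDA differed in 0 of the 10 by edgeR (1 at an unadjusted p under 0.05, 0 by DESeq2), where 0.240% of all genes differed, and APAP and TAA in 0 (2 and 1), where 9.65% did. APAP and CCl4 also differed in 0 (2 and 0), where 5.53% of all genes did. ANIT differed from APAP in 9 genes (beside 16.9% of all genes), from TAA in 7 (23.8%), from CCl4 in 6 (9.54%), from GAL in 5 (18.4%) and from ConA in 4 (21.2%). MDA differed from TAA in 6 (26.2%), from CCl4 in 6 (9.41%), from ConA in 5 (24.2%) and from GAL in 2 (17.7%). Among APAP, TAA, CCl4 and GAL the other counts were 1 for APAP with GAL (13.6%), TAA with CCl4 (7.34%) and TAA with GAL (9.88%), and 2 for CCl4 with GAL (28.6%). ConA differed from APAP in 3 (16.6%), from TAA in 2 (9.06%), from CCl4 in 5 (16.8%) and from GAL in 4 (16.8%). A p that misses the threshold does not show equal effects.

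The 2 intraperitoneal compounds, which share their vehicle mice, differed in 2 members beside 28.6% of all genes. CCl4 exceeded GAL in Cd63 by 2.36 ± 0.37 (adjusted p = 2.19e-06) and in Fabp5 by 1.52 ± 0.37 (adjusted p = 0.0013). For Gpnmb and Lgals3, where the mice of CCl4 all lay above those of GAL, the difference did not pass this test. CCl4 exceeded ANIT in Gpnmb by 5.77 ± 1.46 and in Lgals3 by 4.67 ± 1.15. GAL exceeded ConA in Mmp12 by 5.63 ± 1.63 (adjusted p = 0.0123), and ConA exceeded GAL in Fabp5 by 2.39, with an SE of 0.67 (adjusted p = 0.00962).

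The 6 APAP livers did not raise the 10 genes as a block. Mouse 1 had the lowest values of the group for Ccr2 (0.0778 CPM), Chil3 (2.06), S100a4 (2.13), Trem2 (2.06), Gpnmb (0.372) and Lgals3 (11.6), and the highest for Cd63 (190.5) and Cd68 (83.1). It lay above all 13 gavage vehicle mice in 4 of the 10 genes, beside 28.0% of the same 14035 genes. Mice 2, 4 and 6 lay above all 13 in 9 of the 10 genes, Chil3 being the other, beside 15.4%, 13.5% and 11.0% of all genes. Mice 8 and 11 did so in 6 each, beside 20.5% and 18.4%. Mice 8 and 11 had the highest Chil3, with low Mmp12, Fabp5 and Gpnmb (1.19 and 0.533 CPM), while Trem2 (4.02 and 6.28 CPM) and Cd63 (125 and 87.6 CPM) stayed above every gavage vehicle mouse. The same 2 mice had the highest summed neutrophil markers of the group, given above, and the highest summed Kupffer markers, 983 and 996 CPM against 524 to 733 in the other 4. Mouse 1 had the highest summed hepatocyte markers, 107300 CPM against 72940 to 82330 in the others. It had the lowest summed stellate and fibroblast markers, 52.7 CPM against 90.4 to 130.5. The part of these cells in the members' values was not tested.

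**Figure D2:**
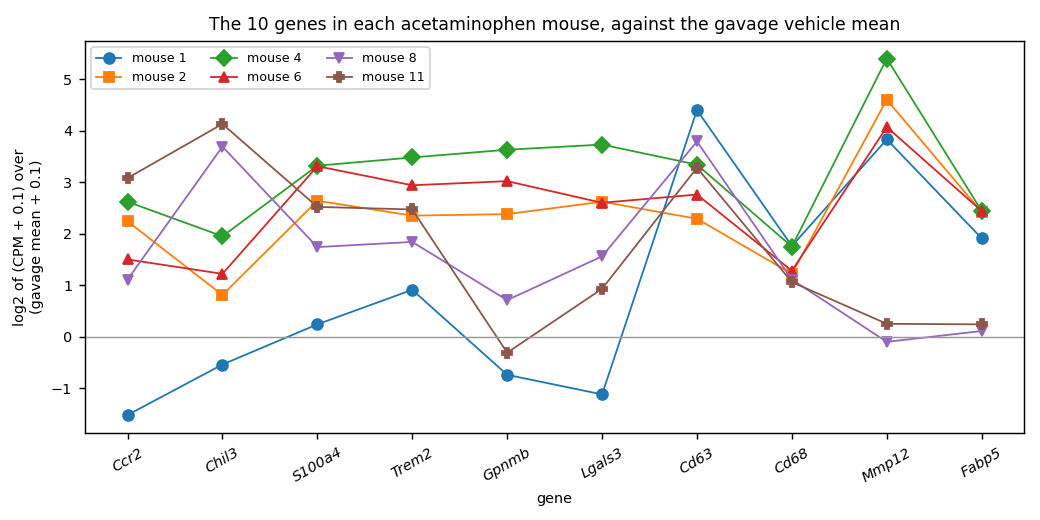
Log2 ratio of each of the 6 APAP mice to the gavage vehicle mean for the 10 genes (a pseudocount of 0.1 CPM was added to both), with a line per mouse to guide the eye. Mouse 1 is at or below the vehicle mean for Ccr2 and Lgals3 and highest for Cd63, and mice 8 and 11 are highest for Chil3 and lowest for Mmp12.

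The vehicle livers were themselves uneven in several members. Neither saline group was called different from gavage vehicle in any of the 10 (0 by edgeR, 0 at an unadjusted p under 0.05 and 0 by DESeq2), which with 2 mice in a saline group does not show equal levels. The saline groups were not tested against each other. Beside this, 0.0131% of all genes differed between intraperitoneal saline and gavage (570 genes at an unadjusted p under 0.05) and 0.0263% between intravenous saline and gavage (580 genes). Among gavage mice, those numbered 1 to 4 had 11.1 to 17.5 CPM of Cd68 and the other 9 had 23.9 to 32.5. Those numbered 15 to 18 had 13.1 to 15.9 CPM of Cd63 and the other 9 at most 8.47. Fabp5 averaged 27.2 ± 6.6 CPM (SD, n = 4) in mice 1 to 4 and 14.6 ± 4.2 (SD, n = 9) in the others. No treated mouse is numbered above 12 and all ANIT mice are numbered 1 to 4, so the controls with numbers like those of a treated group differ between compounds. What the numbers stand for is not given in the labels. How many of all genes part between these ranges of numbers was not counted, so the splits are not read as particular to the members. Against the 9 gavage mice numbered above 4, a set also chosen after the values were seen, Cd68 was called lower with ANIT (-0.55, adjusted p = 0.0302) and MDA (-0.47, adjusted p = 0.0399). With those controls Chil3 with APAP (2.29, adjusted p = 0.106), Trem2 with MDA (0.87, adjusted p = 0.0816) and Gpnmb with TAA (1.34, adjusted p = 0.0631) were not called. Kupffer markers summed to 343 to 487 CPM in gavage mice 1 to 4 and to 668 or more in the others.

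**Figure D3:**
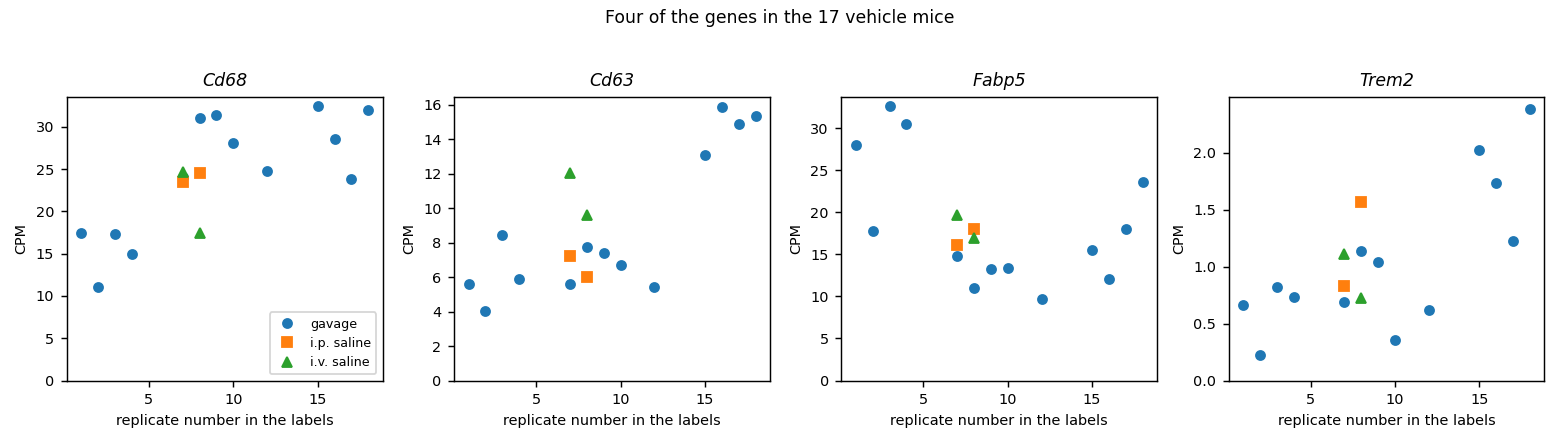
CPM of Cd68, Cd63, Fabp5 and Trem2 in the 17 vehicle mice, plotted against the replicate number of the labels, with marker shape for the vehicle. Cd68 is 11.1 to 17.5 CPM in gavage mice 1 to 4, and Cd63 is 13.1 to 15.9 CPM in gavage mice 15 to 18.

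Of 12 other genes of monocyte entry (chemokines, adhesion molecules and monocyte markers), the number called higher and lower was 8 and 0 of 11 tested with APAP (beside 17.3% and 14.6% of all genes), 7 and 0 of 11 with TAA (26.4% and 24.0%) and 7 and 0 of 10 with ConA (16.8% and 17.3%). It was 5 and 1 of 12 with GAL (12.8% and 15.7%), 5 and 0 of 8 with MDA (17.4% and 16.4%), 4 and 1 of 12 with CCl4 (18.0% and 15.6%), and 1 and 2 of 8 with ANIT (14.0% and 14.2%). Genes low in every mouse of a comparison were not tested, so a gene near 0 in vehicle livers counts mainly where treated mice are high. F13a1 was tested with 4 compounds and rose with all 4, Vcan with 3 and rose with 2, and Ccl12 with 5 and rose with 3. The counts of higher genes therefore lean upward, and the number tested differs between compounds. The median log2 change of those tested ran from 0.40 with ANIT to 2.21 with TAA. Ccl2, the ligand of CCR2, rose most with ConA, to 838 ± 324 CPM (SD, n = 7) from 5.05 ± 0.82 (n = 2), a log2 change of 7.41 ± 0.61 (adjusted p = 4.23e-05), where Ccr2 itself was lowest. It rose by 5.09 ± 0.86 with APAP, 4.34 ± 0.65 with TAA, 3.76 ± 0.51 with GAL, 3.58 ± 0.78 with CCl4 and 2.04 ± 0.64 with MDA, and was not called with ANIT (0.63 ± 0.83). Ccl7, a second ligand of that receptor, rose with the same 6 compounds, from 1.84 ± 0.70 with MDA to 5.81 ± 0.58 with ConA. Itgam, an integrin chain of monocytes and neutrophils, rose with 5, from 1.36 ± 0.41 with MDA to 3.15 ± 0.48 with TAA. Fn1, the matrix protein fibronectin, which hepatocytes also make in quantity, rose with 5 compounds and fell with CCl4 (-0.52 ± 0.09) and GAL (-2.29 ± 0.39).

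**Figure D4:**
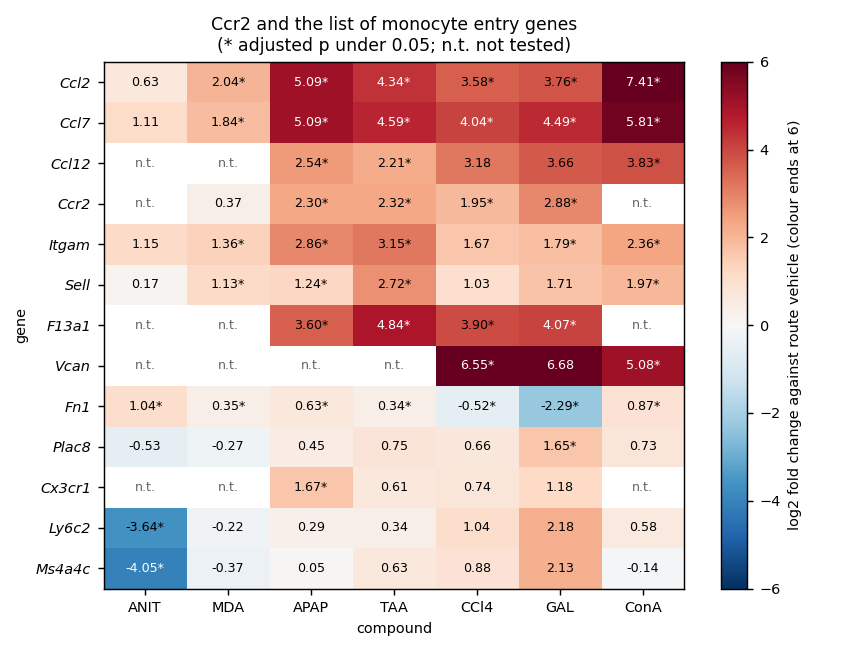
Log2 fold changes of the genes of monocyte entry (rows) for the 7 compounds (columns) against the vehicle of the same route, with calls marked. Ccl2 runs from 0.63 with ANIT to 7.41 with ConA.

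Of 20 partners of TREM2 and of the lysosome, all tested in each comparison, 6 were higher and 1 lower with APAP (beside 17.3% and 14.6% of all genes), 6 and 2 with TAA (26.4% and 24.0%), 3 and 3 with ANIT (14.0% and 14.2%) and 3 and 2 with CCl4 (18.0% and 15.6%). The counts were 2 and 2 with MDA (17.4% and 16.4%), 1 and 3 with GAL (12.8% and 15.7%), and 2 and 5 with ConA (16.8% and 17.3%). With ANIT and CCl4 they lay near the shares of all genes, and the list's median log2 change was between -0.46 with ConA and 0.45 with APAP. Cd9, a tetraspanin, rose with all compounds but ANIT, from 0.77 ± 0.22 with GAL to 1.69 ± 0.19 with TAA. Ctsl, the lysosomal protease cathepsin L, rose with 5 compounds, most with ANIT (1.36 ± 0.16), and fell with GAL (-0.85 ± 0.19). Lipa, the acid lipase of lysosomes, rose with none and fell with 5, from -0.51 ± 0.19 with APAP to -2.05 ± 0.24 with ConA. Tfe3, a transcription factor of lysosomal genes, rose with 4, most with ConA (1.53 ± 0.30).

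Of 13 genes of phagocytosis and repair, 5 were higher and 0 lower of 11 tested with APAP (beside 17.3% and 14.6% of all genes), 5 and 1 of 11 with TAA (26.4% and 24.0%), 5 and 2 of 12 with ConA (16.8% and 17.3%) and 4 and 0 of 11 with ANIT (14.0% and 14.2%). The counts were 3 and 3 of 11 with MDA (17.4% and 16.4%), 3 and 3 of 12 with GAL (12.8% and 15.7%), and 2 and 2 of 12 with CCl4 (18.0% and 15.6%), the last near the shares of all genes. The median log2 change of those tested ran from -0.30 with CCl4 to 0.64 with ConA. Mmp13 was tested with 3 compounds and rose with 2, so the counts of higher genes lean upward here too. Plaur, the urokinase receptor, rose with all 7, from 1.65 ± 0.60 with ANIT to 8.18 ± 0.52 with ConA. Timp1, an inhibitor of matrix proteases including MMP12, rose with 5, from 2.75 ± 0.69 with TAA to 5.49 ± 0.55 with ConA, and was not called with ANIT or MDA. Mmp14, a membrane-bound matrix protease, rose with 5, from 0.84 ± 0.13 with ANIT to 1.04 ± 0.16 with APAP. The compounds of 1 route share their control mice, so counts in their comparisons are not independent.

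Across the 10 groups, the members resembled each other unequally. Pearson's r of group means of log2(CPM + 1) over the 45 pairs of members had a median of 0.729, the highest being Gpnmb with Lgals3 (0.953) and the lowest Trem2 with Fabp5 (0.082). Among 12241 other genes with a symbol and a mean of at least 1 CPM, those most like each member in this measure, over 10 groups, were Clec4n (0.961) and Cd84 (0.955) for Ccr2, Clec4d (0.966) and Lilr4b (0.964) for Chil3, and Gm42674 (0.958) and Eogt (0.956) for S100a4. For Trem2 they were Marco and Mpzl1 (0.954 each), for Gpnmb Cyp4f16 (0.958) and Tmem138 (0.957), and for Cd68 Unc5b (0.961) and Ckap4 (0.957). For Lgals3 they were Cystm1 (0.973) and Fam220a (0.972), for Cd63 Ykt6 (0.976) and Sh3pxd2b (0.973), and for Mmp12 Rap2b (0.965) and Itpripl2 (0.961). Fabp5 had the least alike, Tuba1a (0.934) and Csrp1 (0.912). With 10 points and all those genes searched these are descriptions, and the points share libraries and scaling.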

How the data were processed

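Bulk RNA-seq libraries of 57 mouse livers were used. The values the authors deposited are estimated counts of each gene, and the submitters' processing notes name Salmon 1.6.0, R 4.1.3 and the build GRCm39, without their roles. The smallest value above 0 is lower in longer genes (Spearman's rho of -0.76, over 13043 genes of 1 transcript), so these counts look scaled per length, which is not stated, and no counting intervals are given. Symbols came from GENCODE M21 (51482 of 54307 IDs matched). Counts were rounded and tested in R 4.3.3 by edgeR 4.0.16, which calls limma 3.58.1: TMM, filterByExpr, the two-sided quasi-likelihood test, and Benjamini-Hochberg adjustment over all genes tested. Groups come from the sample labels, and replicates are separate mice. DESeq2 1.42.0, other scaling, no filter, covariates and leaving out each mouse were the alternatives. Tried on simulated data, the test found most large changes against gavage or all vehicle mice, and fewer or none of them against 2 saline mice. Far fewer genes were changed in the simulation than were called in the livers, which makes the adjusted p stricter there. This recovery therefore does not carry over to the comparisons above.

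Named are the 10 members and, of 3 pathway lists, up to 4 genes called in most of the 7 route comparisons, ties going to the larger median change. One gene this rule names is not reported here. Also named are the 2 genes most like each member. Members and lists were chosen with earlier results of these data known.

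Replicate numbers did not pair the mice: deviations of same-numbered mice from their group means correlated on average at -0.173 to 0.145, and no comparison had every pair above 0.1. No protein sequences were used here.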

Additional observations from a re-analysis of the deposited data

Results flagged for a closer look

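In 5 of 70 combinations of gene and group, 1 mouse stood far from the others of its group by Dixon's criterion, of which chance gives about 1 in 20. ANIT mouse 1 was highest for Chil3, at 24.7 CPM against 0.382 to 1.62 in the other 3 mice, and for Trem2, at 3.17 CPM against 0.834 to 1.03. ConA mouse 12 was highest for Gpnmb, at 3.02 CPM against 0.531 to 0.974 in the other 6, and for Cd63, at 127 CPM against 41.2 to 77.6. MDA mouse 7 was highest for Cd68, at 36.4 CPM against 15.0 to 20.7 in the other 6. ANIT mouse 1 also had the highest summed neutrophil markers of its group, 49.8 CPM against 15.3 to 31.2, and MDA mouse 7 had 139 CPM against 9.63 to 121. Summed hepatocyte markers were 120000 CPM in ANIT mouse 1 against 69740 to 76370 in the others of its group. In ConA mouse 12 they were 46010 CPM against 73590 to 101200. The part of these cells in the flagged values was not tested.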

How the results depend on the processing

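Of the members' results, 0 reversed under any alternative run, though values without a call changed sign in some fits. Calls of single members were kept in 153 of 155 results with DESeq2, 146 of 157 with the library total as scale, 152 of 157 without the filter, 103 of 108 with a covariate for replicate numbers up to 4 against higher ones, and 1077 of 1121 with 1 mouse left out. With the replicate block, 118 of 138 were kept: the number of members called with APAP against gavage vehicle went from 10 to 1, and all genes called from 4436 to 230, where 4 numbers are shared and the pairing check failed. All genes called with the block also went from 3967 to 962 (ANIT), 4570 to 2600 (MDA), and against all vehicle mice 4043 to 1493 (ANIT), 4774 to 1891 (APAP) and 7582 to 4926 (CCl4). CCl4 and ConA share 1 number with their saline mice, so no paired analysis was possible there. With ANIT, members called went from 1 to 2 against gavage mice above 4 and to 3 against those up to 12, both control sets chosen after seeing the data, and from 1 to 2 against all vehicle mice with the range covariate, where all genes went from 4043 to 2635. The cause was not tested.

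With 1 mouse left out, members called ranged from 5 to 9 with CCl4 and 6 to 10 with GAL, lowest without a saline mouse, 2 to 5 with ConA, 9 to 10 with APAP and TAA, 2 to 4 with MDA and 1 to 1 with ANIT, and 1 to 2 with ANIT against all vehicle mice (2 without mouse 1). All genes called then went as low as 3015 with CCl4 (from 5152), 1617 with GAL (from 4416) and 2540 with ANIT (from 3967), or 2614 against all vehicle mice. Between the vehicle groups, all genes called went from 2 to 162 (intraperitoneal) and 4 to 85 (intravenous) with DESeq2, to 0 and 218 with the replicate block, and to 0 to 115 and up to 148 with a saline mouse left out, and no member was called in any of these. Differences between compounds, those of Ccr2 with ANIT or ConA included, numbered 78, and 72 to 111 under 4 alternatives.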
